A study of Mus musculus with 18 samples.

Results

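The 10 genes described here encode the IκB kinase (IKK) complex and proteins that act just upstream of it: Chuk, Ikbkb, Ikbkg, Map3k7, Tab1, Tab2, Map3k14, Traf3, Cyld and Tnfrsf1a. They were chosen by symbol, and each matched 1 of the 55487 genes in the count table. RNA was sequenced from mouse embryonic stem cells (mESCs) grown in Serum/LIF, with 3 IκBα-WT and 3 IκBα-KO clones, and from embryoid bodies (EBs, aggregates of differentiating mESCs) at 48 hr and 96 hr, with 6 libraries at each time. IκBα, encoded by Nfkbia, was removed with CRISPR-Cas9, so each KO library is 1 edited clone and differences that belong to single clones enter the comparison. Each EB time holds 3 IκBα-WT and 3 IκBα-KO samples by the labels, but the EB columns carry the clone codes D4, E14, E2, E3, H7 and H9, which the labels do not pair with a genotype. WT and KO EBs were therefore not compared, and the 2 EB groups mix both genotypes.

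IKK is the gate of the NF-κB pathway. Its 2 kinases, IKKα (Chuk) and IKKβ (Ikbkb), are held by the scaffold NEMO (Ikbkg). In the canonical branch a receptor such as TNFR1 (Tnfrsf1a) assembles ubiquitin chains that recruit the kinase TAK1 (Map3k7) through its partners TAB1 and TAB2, TAK1 activates IKK, and IKKβ marks IκBα for destruction, which frees NF-κB. In the non-canonical branch NIK (Map3k14) activates IKKα. TRAF3 keeps NIK low by leading it to degradation, and the deubiquitinase CYLD trims the chains that carry the canonical signal. IκBα acts below IKK in the canonical branch, and Nfkbia is itself a well-known NF-κB target.

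NF-κB dimers bind a range of related DNA sequences. The form searched first is a narrow one that reads GGG, any 2 bases, then TTTCC. RefSeq promoters (250 bases before and 50 after a transcript start, GRCm38.p6) were present for 8 of the 10 genes, all except Ikbkb and Tab1, with 12 promoters in all. The letters were found on either strand in 3 of these 12 promoters, 1 each of Map3k7, Cyld and Traf3, against 1.63% of 32851 promoters of the same length. With a looser form (GGG, any 3 bases, TTCC), which contains the first, 1 promoter of Chuk was added and the share of all promoters was 5.56%. A still looser form (GGG, any 5 bases, CC), which contains both, was in 8 of the 12 promoters (7 genes) and in 50.8% of all promoters. A match of letters is a description and not a binding site. The stretches around the first form are printed for its 3 genes and for Nfkbia, which holds the same letters. Traf3 and Cyld differed between the mESC genotypes, as did Tnfrsf1a, which lacked this form, and Map3k7 did not pass the test. Genes around Traf3 and Cyld on the chromosome moved with them, and whether the letters had a part was not tested. Each reads 5′ to 3′ on the gene's own strand and stops before the transcript start, with the match in capitals (on the opposite strand in Map3k7, Cyld and Nfkbia).
Map3k7 (chr4:31963985-31964054, plus strand): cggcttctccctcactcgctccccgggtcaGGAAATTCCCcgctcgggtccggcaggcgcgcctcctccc
Cyld (chr8:88696843-88696912, plus strand): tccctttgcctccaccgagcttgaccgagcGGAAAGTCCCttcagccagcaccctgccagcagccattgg
Traf3 (chr12:111166330-111166369, plus strand): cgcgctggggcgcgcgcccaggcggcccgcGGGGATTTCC
Nfkbia (chr12:55492648-55492706, minus strand): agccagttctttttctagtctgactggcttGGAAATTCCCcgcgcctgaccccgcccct

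Between 28287582 and 40904247 reads were counted on genes per library, and levels are given as CPM, each count relative to its library's total on genes, scaled by TMM over the 18 libraries. The KO clones carried less Nfkbia RNA, at 9.44 to 10.2 CPM against 25.3 to 35.1 CPM in the WT clones (edgeR log2 fold change -1.67, SE 0.14, adjusted p = 0.00489). KO clone 2 stood apart. Its log2 CPM differed from the group median by 0.447 (root mean square over genes averaging 50 counts or more), against 0.157 and 0.162 in the other KO clones. At 96 hr the library of code E14 had the largest such deviation, 0.782, against 0.367 to 0.589 in the other 5. The summed CPM of 5 pluripotency markers was 2834 to 3127 in WT and 3163 to 3645 in KO mESCs, 1415 to 2070 at 48 hr and 605 to 1551 at 96 hr, so marker RNA of pluripotent cells was still present in the EBs. The sum of 4 endoderm markers was 21.7 and 29.1 CPM in KO clones 1 and 3, against 2.82 CPM in KO clone 2 and 2.64 to 3.66 CPM in the WT clones. The sum of 4 primed epiblast markers was 617 to 971 CPM in WT and 376 to 450 CPM in KO clones, and Fgf5 among them was 1.80 to 5.71 CPM against 0.059 to 0.22 CPM. The pluripotency and primed epiblast sums thus did not overlap between the mESC genotypes, as 29.0% of all genes did not. Of the pluripotency markers only Zfp42 did not overlap, at 677 to 747 CPM in WT and 836 to 1112 CPM in KO clones. Pou5f1, Nanog, Sox2 and Esrrb overlapped, and the lowest KO clone in Sox2 and in Esrrb was below every WT clone. The part of these markers' cell states in the KO results was not tested. At 48 hr and 96 hr the primed epiblast sum was 823 to 2489 and 1026 to 1825 CPM. Sums over 2 neuroectoderm, 5 fibroblast and 2 detected blood markers were 1.28 to 17.6, 8.54 to 28.2 and 4.88 to 12.1 CPM over all libraries. In bulk RNA, fewer cells of a type and less RNA per cell cannot be told apart.

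The 10 genes fell into 3 ranges of level in mESCs. Per kilobase of coding transcript exons, Chuk, Tab2 and Map3k7 had means of 34.1, 33.5 and 27.2 CPM per kb over the 6 clones. Ikbkb, Tab1, Cyld, Tnfrsf1a, Traf3 and Ikbkg followed between 5.08 and 3.05 CPM per kb, and Map3k14 was lowest at 0.987 CPM per kb. The ranges of Chuk and Tab2 overlapped, as did those of each neighbouring pair from Ikbkb down to Ikbkg. The kinase IKKα and the TAK1 kinase with its adaptor TAB2 thus had the abundant transcripts, while IKKβ, NEMO and the proteins that control the branches had much less. The order depended on the transcript models. With every annotated exon counted in the length, Map3k7 came first and Ikbkb, whose summed exons grow from 4533 to 19078 bases, dropped to rank 9.

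**Figure D1:**
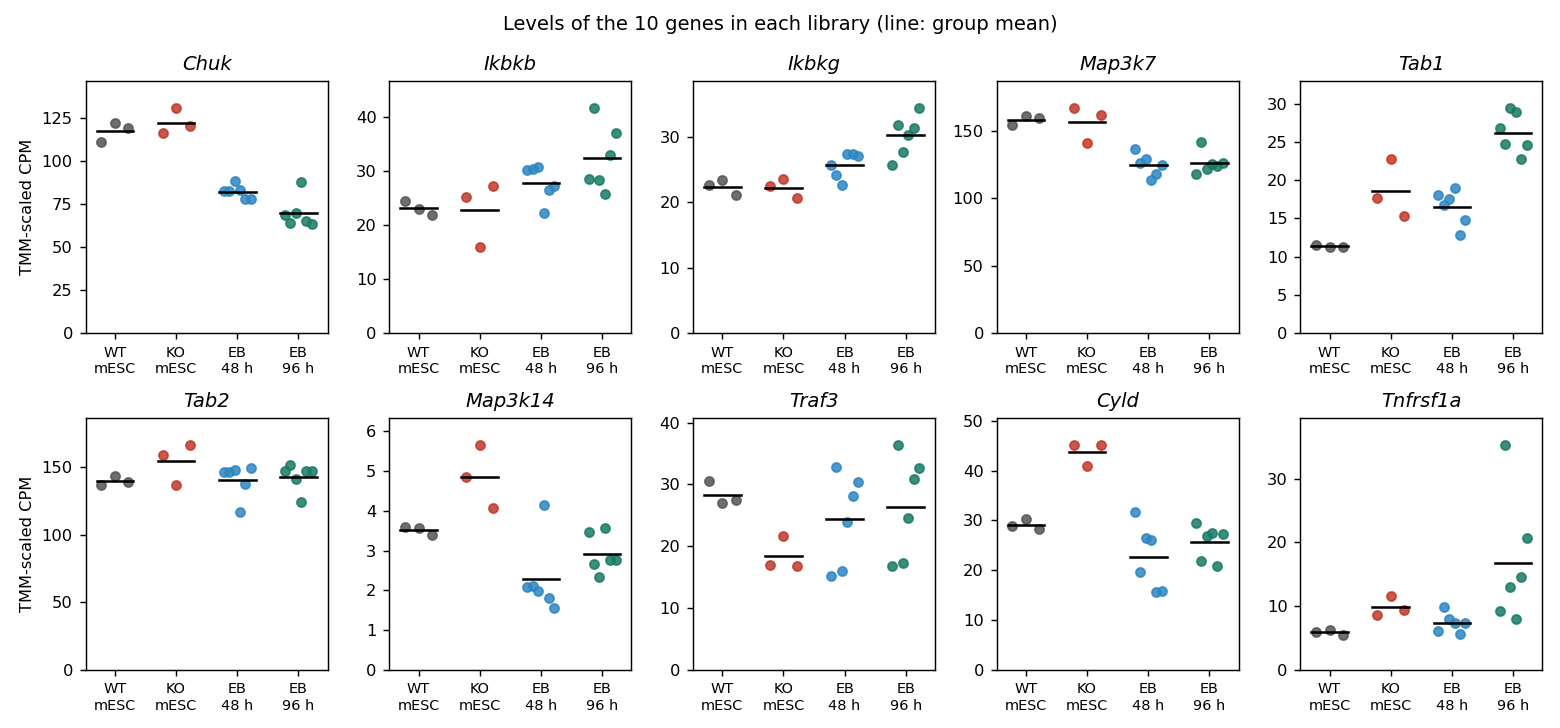
TMM-scaled CPM (vertical axes, from 0) of the 10 genes in each of the 18 libraries, grouped as WT mESC, KO mESC, EB 48 h and EB 96 h, with 1 point per library and a line at the group mean. In KO mESCs Tab1, Cyld, Tnfrsf1a and Map3k14 lie above every WT clone and Traf3 lies below, while Chuk and Map3k7 step down from mESCs to EBs.

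The mESC comparison asked whether loss of IκBα went with different RNA levels of these 10 genes. In IκBα-KO mESCs the receptor gene Tnfrsf1a, the TAK1 partner Tab1 and the deubiquitinase gene Cyld were higher by 1.51 to 1.68 fold, and the adaptor gene Traf3 was lower, at 0.649 of the WT level. The IKK genes themselves and Map3k7 did not pass the test. In all, 3 of the 10 genes were called higher and 1 lower at an adjusted p under 0.05 (edgeR quasi-likelihood test, Benjamini-Hochberg over all genes). Of all 21843 genes tested, 4.79% were called, 3.09% higher and 1.69% lower. A stricter count filter (edgeR filterByExpr) left 16554 genes, of which 1175 were called. Of the 10 genes, 3 were again higher and 1 lower. WT and KO clones did not overlap for 5 of the 10 genes, against 29.0% of all genes.

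Tnfrsf1a (chr6:125349362-125362484) was at 5.90, 6.24 and 5.48 CPM in WT clones 1 to 3 and at 8.66, 11.6 and 9.40 CPM in KO clones 1 to 3. The lowest KO clone lay above the highest WT clone, with log2 fold change 0.75 (SE 0.15, adjusted p = 0.0330, edgeR). An exact permutation test, two-sided, gave p = 0.1, the smallest that 3 against 3 clones allow, and the same p for the 4 other genes without overlap. Ltbr, which encodes the lymphotoxin β receptor, is the nearest gene before Tnfrsf1a on the chromosome that averages 50 counts or more. It had log2 fold change 0.43 (SE 0.19, adjusted p = 0.242, edgeR).

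Traf3 (chr12:111166370-111267153) was at 30.5, 26.9 and 27.5 CPM in the WT clones and at 16.9, 21.7 and 16.7 CPM in the KO clones. The genotypes did not overlap, and KO clone 2 was the closest to the WT level (log2 fold change -0.62, SE 0.12, adjusted p = 0.0308, edgeR). Map3k14 (chr11:103219762-103267472), whose protein TRAF3 restrains, was at 3.59, 3.58 and 3.40 CPM in WT and 4.84, 5.67 and 4.06 CPM in KO clones. The groups did not overlap, but the difference did not pass the test (log2 fold change 0.46, SE 0.18, adjusted p = 0.176, edgeR). Map3k14 shares 135 exon bases with another annotated transcript on its own strand.

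Cyld (chr8:88697028-88751945) was at 28.8, 30.2 and 28.3 CPM in the WT clones and at 45.2, 41.01 and 45.2 CPM in the KO clones. The clones of each genotype lay close together and the gap between genotypes was wider than either spread (log2 fold change 0.59, SE 0.08, adjusted p = 0.0113, edgeR).

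Among the TAK1 genes, Tab1 (chr15:80133127-80161707) was at 11.5, 11.3 and 11.2 CPM in WT and at 17.6, 22.8 and 15.3 CPM in KO clones. The 3 WT clones were nearly equal and each KO clone was higher, clone 2 the most (log2 fold change 0.71, SE 0.15, adjusted p = 0.0358, edgeR). Map3k7 (chr4:31964097-32023467) was at 154, 161 and 159 CPM in WT and at 167, 141 and 161 CPM in KO clones. Tab2 (chr10:7905653-7956230) was at 137, 143 and 139 CPM in WT and at 159, 137 and 166 CPM in KO clones. For both genes KO clone 2 was the lowest KO clone and the groups overlapped, with log2 fold changes of -0.02 (SE 0.08, adjusted p = 0.932, edgeR) and 0.14 (SE 0.09, adjusted p = 0.390, edgeR). Without KO clone 2, Tab2 was called higher, at log2 fold change 0.23 with adjusted p = 0.00817.

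The IKK genes did not pass the test in either direction. Chuk (chr19:44073335-44107480) was at 111, 122 and 119 CPM in WT and at 116, 131 and 120 CPM in KO clones (log2 fold change 0.06, SE 0.07, adjusted p = 0.666, edgeR). Ikbkb (chr8:22659212-22706589) was at 24.6, 23.1 and 21.9 CPM in WT and at 25.3, 15.9 and 27.2 CPM in KO clones (log2 fold change -0.02, SE 0.19, adjusted p = 0.963, edgeR). KO clone 2 was far below the other KO clones in Ikbkb, and the coefficient of variation among KO clones was 26.4%, with 16.3% of genes having a larger one. Ikbkg (chrX:74393290-74453854) was at 22.6, 23.5 and 21.2 CPM in WT and at 22.6, 23.6 and 20.6 CPM in KO clones, nearly the same range in both (log2 fold change -0.01, SE 0.10, adjusted p = 0.963, edgeR). Its exons share 418 bases with G6pdx on the opposite strand, and the strand setting of the counting is not given in the sources used here.

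Each of these calls was lost when 1 of several clones was left out. The number of the 10 genes called ranged from 0, without any 1 of the 3 WT clones, to 5, without KO clone 2, with 1 left without KO clone 1 and 2 without KO clone 3. Over all genes, 318, 0 and 34 were called without WT clone 1, 2 or 3, and 3736 without KO clone 2, against 1046 with all 6 clones. The log2 fold changes of the 4 called genes kept their sign in all 6 of these fits.

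For Traf3 and Cyld, the genes around them on the chromosome moved the same way. Of the 58 other genes within 5 Mb of Traf3, 54 had a negative log2 fold change and 27 were called lower. The neighbours Rcor1 and Cdc42bpb had log2 fold changes of -0.71 (adjusted p = 0.00845, edgeR) and -0.89 (adjusted p = 0.0147, edgeR). Relative to the WT mean, the median of this 10 Mb window was -0.96, -0.35 and -1.02 on the log2 CPM scale in KO clones 1 to 3, where Traf3 itself was -0.73, -0.40 and -0.75. The region was lower in each clone, least in clone 2. Traf3 was less reduced than its surroundings in clones 1 and 3 and slightly more in clone 2. With the window median taken off as an offset in each library, the log2 fold change of Traf3 was 0.14 (adjusted p = 0.511, edgeR).

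Around Cyld, 74 of 75 other genes had a positive log2 fold change and 30 were called higher. The window medians were 0.56, 0.28 and 0.50 in KO clones 1 to 3, and Cyld was 0.65, 0.47 and 0.64. Cyld lay slightly above its window in each clone, and the offset left it at 0.14 in log2 fold change (adjusted p = 0.337, edgeR). Whether the number of chromosome copies differed in these clones was not tested.

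The surroundings of the other 2 called genes were closer to the WT level. In the window of Tnfrsf1a, 48 of 82 other genes had a positive log2 fold change and 2 were called higher and 1 lower. The medians were 0.05, 0.10 and 0.01, against 0.57, 0.96 and 0.68 for the gene, and with the offset the difference was still called (log2 fold change 0.69, adjusted p = 0.0314, edgeR). In the window of Tab1, 152 of 180 other genes had a positive log2 fold change and 6 were called higher and 1 lower. Its median was raised in KO clone 2, with values of -0.01, 0.59 and -0.07 against 0.65, 0.98 and 0.44 for the gene, and the offset left a log2 fold change of 0.52 (adjusted p = 0.0317, edgeR). The neighbour Mgat3 was called higher too (log2 fold change 0.55, adjusted p = 0.0475, edgeR), at 0.53, 0.66 and 0.46 in KO clones 1 to 3. Tnfrsf1a and Tab1 were the 2 of the 10 genes still called with the offset.

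**Figure D2:**
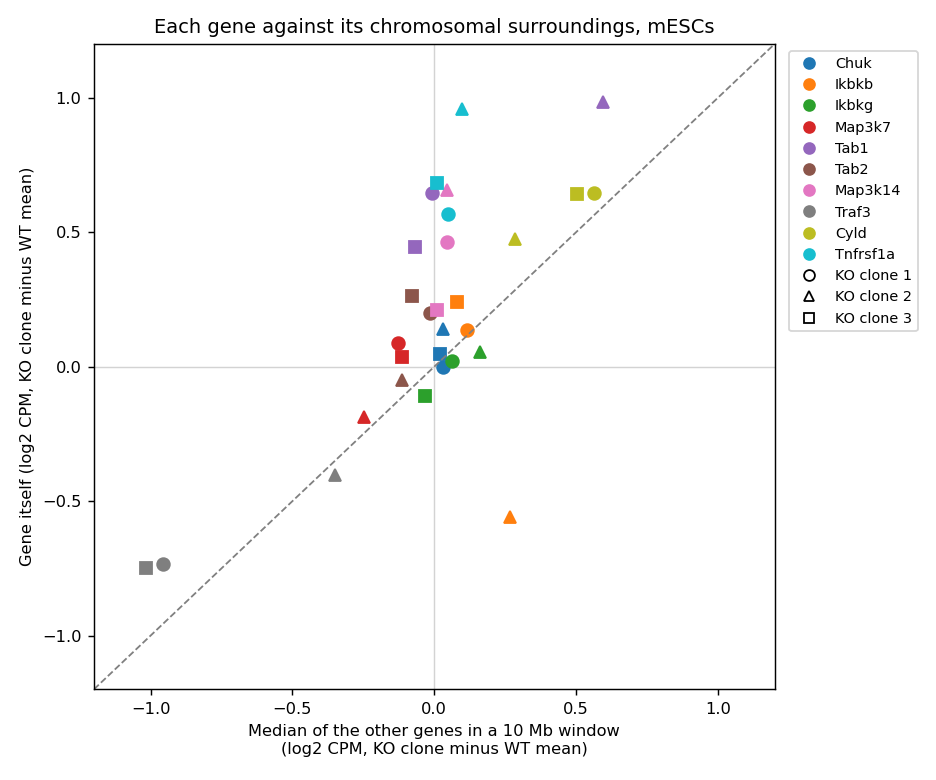
Difference between a KO clone and the WT mean in log2 CPM for each of the 10 genes (vertical axis) against the median difference of the other genes in its 10 Mb window (horizontal axis), with 1 marker shape per KO clone and a dashed line of equality. Traf3 and Cyld lie along the line at both ends, whereas Tnfrsf1a sits near 0 on the horizontal axis and between 0.57 and 0.96 on the vertical axis.

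The second comparison asked how these genes moved as mESCs formed EBs, with both genotypes in each group. By 48 hr 4 of the 10 genes had fallen (Chuk, Map3k7, Map3k14 and Cyld) and 0 had risen (edgeR, adjusted p under 0.05). At an unadjusted p under 0.05, 1 gene (Ikbkg) was higher, and the DESeq2 Wald test also called 0 higher and 4 lower. Of 25318 genes tested, 27.9% were called, 13.0% lower and 14.9% higher. With the stricter count filter, 6928 of 17055 genes were called, and again 4 of the 10.

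Chuk, the IKKα gene, was at 111 to 131 CPM (median 119) in the 6 mESC libraries and at 78.0 to 88.2 CPM (median 82.3) in the 6 EB libraries. All EB libraries were below all mESC libraries, a fall to 0.685 of the mESC level (log2 fold change -0.54, SE 0.07, adjusted p = 1.94e-05, edgeR). Map3k7, the TAK1 gene, was at 141 to 167 CPM (median 160.0) in mESCs and at 113 to 136 CPM (median 125) at 48 hr. Again no library overlapped (log2 fold change -0.34, SE 0.06, adjusted p = 0.000245, edgeR). Such a gap with every EB library lower was seen in 8.07% of all genes.

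Map3k14, already the lowest, was at 3.40 to 5.67 CPM (median 3.83) in mESCs and at 1.55 to 4.15 CPM (median 2.03) at 48 hr (log2 fold change -0.87, SE 0.22, adjusted p = 0.00606, edgeR). The library of code E3 held the 4.15 CPM, and without it the log2 fold change was -1.13. Cyld was at 28.3 to 45.2 CPM (median 35.6) in mESCs and at 15.6 to 31.7 CPM (median 22.9) at 48 hr (log2 fold change -0.69, SE 0.18, adjusted p = 0.00698, edgeR). The WT mESC clones, at 28.3 to 30.2 CPM, fell within the upper end of the EB range, and the KO clones lay above it.

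The other 6 genes were not called at 48 hr. Ikbkg was at 22.7 to 27.5 CPM (median 26.4) after 20.6 to 23.6 CPM in mESCs (log2 fold change 0.20, SE 0.08, adjusted p = 0.0628, edgeR). Ikbkb was at 22.2 to 30.8 CPM (median 28.7) after 15.9 to 27.2 CPM (log2 fold change 0.28, SE 0.13, adjusted p = 0.134, edgeR). Both ranges overlapped those of mESCs. Tab1, Tab2, Traf3 and Tnfrsf1a had log2 fold changes between -0.10 and 0.14. For Tab1, Traf3 and Tnfrsf1a the pooled mESC genotypes did not overlap, so a value near 0 does not show a level gene. Tab1 was at 12.9 to 19.0 CPM at 48 hr, above the WT mESC clones (11.2 to 11.5 CPM) and overlapping the KO clones (15.3 to 22.8 CPM).

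**Figure D3:**
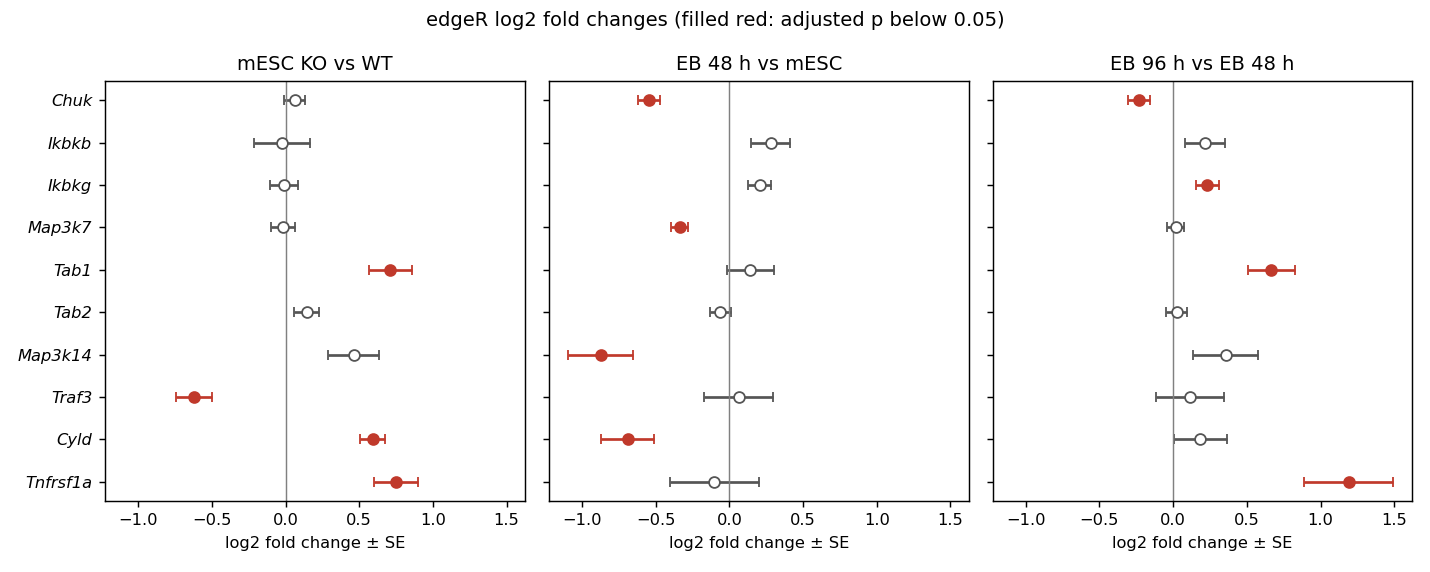
log2 fold changes of the 10 genes from edgeR with their standard errors (horizontal axes) for KO against WT mESCs, 48 h EBs against mESCs and 96 h against 48 h EBs, with filled red points for an adjusted p under 0.05. Chuk lies below 0 in both stage steps, Tab1 and Tnfrsf1a lie above 0 in the KO and the 96 h comparisons, and Traf3 is called only in mESCs among the 3 comparisons plotted.

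Between 48 hr and 96 hr, Tnfrsf1a, Tab1 and Ikbkg rose and Chuk fell. These 4 of the 10 genes compare with 27.7% of all genes called, 13.9% higher and 13.8% lower. With the stricter count filter, 6635 of 17055 genes were called, and 4 of the 10. The share called thus depends on how many genes with few reads are counted. The same clone codes were present at both times, and libraries of the same code deviated together, so the count was repeated with the code as a block and again gave 4 genes. The fold changes, SEs and adjusted p given for single genes in this step are from the fit without that block. Values from the 48 hr EBs stand on both sides of this step and of the one before, so the 2 comparisons are not independent.

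Tab1 was at 12.9 to 19.0 CPM (median 17.2) at 48 hr and at 22.8 to 29.4 CPM (median 25.8) at 96 hr. Every library at 96 hr was above every library at 48 hr, and the change ran from 0.55 to 0.82 on the log2 CPM scale in the 6 clone codes (log2 fold change 0.67, SE 0.16, adjusted p = 0.00553, edgeR). A gap with every 96 hr library higher was seen in 4.17% of all genes. The other TAK1 genes did not pass the test, Map3k7 at 118 to 141 CPM (median 125) and Tab2 at 124 to 151 CPM (median 147) at 96 hr.

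Tnfrsf1a was at 5.64 to 9.85 CPM (median 7.35) at 48 hr and at 7.98 to 35.3 CPM (median 13.8) at 96 hr. It was higher at 96 hr in 6 of 6 clone codes, which 15.9% of all genes were, but by very different amounts, from 0.10 in E3 to 1.84 in E14 on the log2 CPM scale. The log2 fold change was 1.19 (SE 0.30, adjusted p = 0.00802, edgeR), and without the E14 library at 96 hr it was 0.86 and still called. At 96 hr the coefficient of variation of Tnfrsf1a was 60.3% against a median of 17.9% over genes, and 8.99% of genes had a larger one. Markers of other cell types varied too. The summed CPM of 5 primitive streak and mesoderm markers ran from 14.6 in E3 to 1072 in E14 at 96 hr, and that of 4 endoderm markers from 4.17 in E3 to 205 in E14. E3 was thus the lowest and E14 the highest in Tnfrsf1a and in both marker lists, and the part of these cells in the rise was not tested.

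Chuk went on falling, from 78.0 to 88.2 CPM at 48 hr to 63.4 to 87.6 CPM (median 67.0) at 96 hr (log2 fold change -0.23, SE 0.07, adjusted p = 0.0237, edgeR). It fell in 5 of 6 clone codes, and E3 was the exception. The call was lost in 9 of 18 fits that left out 1 library, with adjusted p up to 0.138 without E14 at 96 hr. Ikbkg went the other way, to 25.7 to 34.5 CPM (median 30.9), and was higher in 5 of 6 clone codes (log2 fold change 0.23, SE 0.08, adjusted p = 0.0371, edgeR). Leaving out E14 or E2 at 48 hr, or H7 or H9 at 96 hr, raised its adjusted p to between 0.0656 and 0.0969. Ikbkb was at 25.8 to 41.7 CPM (median 30.8) and did not pass (log2 fold change 0.21, SE 0.13, adjusted p = 0.244, edgeR).

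The gap between the 2 kinase genes of IKK was smaller in EBs. The log2 CPM of Chuk minus that of Ikbkb was 2.14 to 3.03 in the 6 mESC clones, 1.43 to 1.90 at 48 hr and 0.61 to 1.76 at 96 hr. The mESC and 48 hr ranges did not overlap, and those of 48 hr and 96 hr did. This difference was chosen after the values were seen and is given without a test.

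Traf3 was at 15.2 to 32.8 CPM (median 26.1) at 48 hr and at 16.7 to 36.4 CPM (median 27.7) at 96 hr. The change was small in each clone code, from 0.03 to 0.15 on the log2 CPM scale, and positive in 6 of 6, but the spread between codes was wide, with coefficients of variation of 30.4% and 31.2%. It was not called in the fit without the clone code, whose SE includes the spread between codes (log2 fold change 0.11, SE 0.23, adjusted p = 0.755, edgeR). Cyld at 20.9 to 29.6 CPM (median 27.1) and Map3k14 at 2.33 to 3.57 CPM (median 2.76) were not called either. Without the E3 library at 48 hr, Map3k14 was called higher at 96 hr (log2 fold change 0.61, adjusted p = 0.0186, edgeR).

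**Figure D4:**
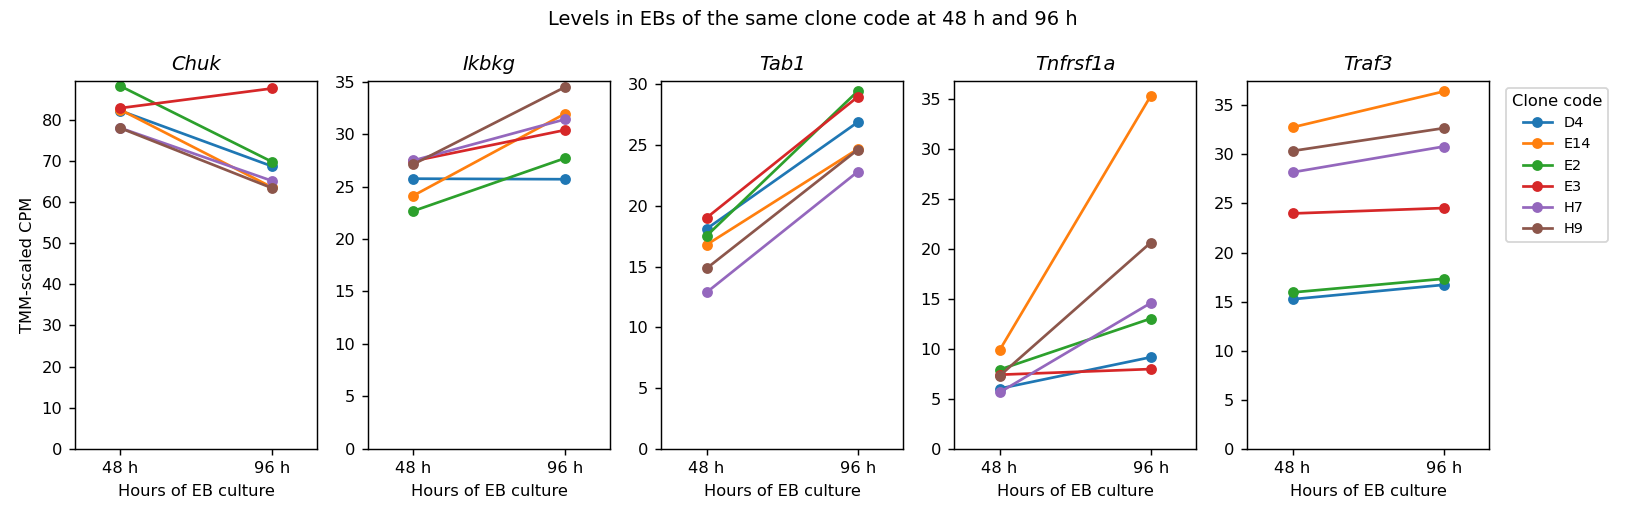
TMM-scaled CPM (vertical axes, from 0) of 5 genes in EBs at 48 h and 96 h, with 1 line and colour per clone code. The 6 lines of Tab1 and of Tnfrsf1a rise, those of Chuk fall except E3, and those of Traf3 run nearly level while the codes stay apart.

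A list of 54 further genes of the pathway was set beside these 10, of which 53 could be tested and Tlr4 fell under the count minimum. In KO mESCs 1 of the 53 was higher and 1 lower, or 3.77% against 4.79% of all genes. Ikbke, which encodes an IKK-related kinase, rose from 1.22 to 1.39 CPM in WT to 2.41 to 5.05 CPM in KO clones (log2 fold change 1.39, SE 0.30, adjusted p = 0.0402, edgeR). Hsp90aa1, which encodes a chaperone of IKK, fell from 6452 to 6788 CPM to 2838 to 5101 CPM (log2 fold change -0.87, SE 0.19, adjusted p = 0.0446, edgeR) and lies at chr12:110690605-110702728, within 5 Mb of Traf3 and thus in the same lowered region. With the window offset 1 pathway gene was called higher and 0 lower, so this call was lost. No member of the other parts of the list, among them the TNF receptor and death domain genes, the TRAF and cIAP genes and the non-canonical receptors, was called in mESCs by edgeR.

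By 48 hr 11 of the 53 were higher and 7 lower, or 34.0% against 27.9% of all genes. With the stricter count filter 11 were again higher and 7 lower, beside 6928 of 17055 genes called. Traf2, an adaptor of TNFR1, rose from 12.2 to 14.3 CPM in mESCs to 17.7 to 21.9 CPM with no overlap (log2 fold change 0.63, SE 0.08, adjusted p = 1.70e-05, edgeR). Tnip2, which encodes a ubiquitin binder that limits signalling, fell from 6.24 to 11.7 CPM to 1.47 to 4.66 CPM (log2 fold change -1.71, SE 0.24, adjusted p = 3.16e-05, edgeR). Myd88, the adaptor of Toll-like and IL-1 receptors, fell from 5.59 to 8.69 CPM to 2.98 to 5.64 CPM (log2 fold change -0.88, SE 0.19, adjusted p = 0.00158, edgeR), and its exons overlap Acaa1a on the opposite strand. Azi2, whose protein serves the IKK-related kinases, fell from 53.4 to 59.5 CPM to 35.1 to 43.6 CPM (log2 fold change -0.52, SE 0.09, adjusted p = 0.000203, edgeR). The calls thus ran in both directions within the pathway. The other genes named by rule had few reads, as Traf1 (log2 fold change -0.76), Il1r1 (1.14) and Map3k8 (1.03) reached at most 1.02, 2.72 and 4.31 CPM in the mESC and 48 hr libraries, and Ube2v1 (0.69) shares 61.5% of its exon bases with another gene on its strand.

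At 96 hr 14 of the 53 were higher than at 48 hr and 3 lower, or 32.1% against 27.7% of all genes, and with the clone code as a block 18 were higher and 8 lower. With the stricter count filter 17 were higher and 3 lower, beside 6635 of 17055 genes called. The receptor gene Cd40 rose from 0.170 to 1.23 CPM to 0.809 to 13.999 CPM (log2 fold change 3.18, SE 0.64, adjusted p = 0.00180, edgeR), and Ltbr rose from 3.13 to 8.65 CPM to 6.82 to 25.0 CPM (log2 fold change 1.42, SE 0.30, adjusted p = 0.00235, edgeR). Cd40 started from few reads, with 5 counts in its lowest library. Tnfaip3, the gene of the deubiquitinase A20, rose from 2.48 to 4.09 CPM to 5.06 to 11.04 CPM with no overlap (log2 fold change 1.22, SE 0.21, adjusted p = 0.000606, edgeR). Map3k1, which encodes another upstream kinase, rose from 23.1 to 34.8 CPM to 41.7 to 66.3 CPM, again with no overlap (log2 fold change 0.99, SE 0.11, adjusted p = 1.83e-05, edgeR). Irak2, a kinase of the IL-1 and Toll-like arm, fell from 6.94 to 14.6 CPM to 2.67 to 9.68 CPM (log2 fold change -1.0002, SE 0.29, adjusted p = 0.0169, edgeR). Tab3, the partner of TAK1 most like TAB2, fell from 57.3 to 69.2 CPM to 52.7 to 54.7 CPM with no overlap (log2 fold change -0.20, SE 0.06, adjusted p = 0.0162, edgeR), while Tab1 rose. Ube2d3, which encodes a ubiquitin-conjugating enzyme, fell from 345 to 422 CPM to 293 to 351 CPM (log2 fold change -0.24, SE 0.06, adjusted p = 0.00795, edgeR).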

How the data were processed

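According to the submitters' processing notes and the paper's methods, the authors trimmed reads with Trim Galore 0.6.6, aligned them to GRCm38 with STAR 2.7.8 and counted them with featureCounts (Subread 2.0.1). The counts deposited by the authors are whole numbers per gene without normalization and were used for all values. A second deposited table of variance-stabilized log2 values was not used. In R 4.3.3, edgeR 4.0.16 scaled libraries by TMM and ran the quasi-likelihood test with robust settings on genes whose counts summed to 10 or more in the libraries fitted: 6 mESC libraries for KO against WT, and all 18 for the stages, with mESC genotypes pooled. A gene was called at an adjusted p (Benjamini-Hochberg over all genes tested) under 0.05. CPM levels use TMM over all 18 libraries and log2 CPM a prior count of 2. The SE is the log2 fold change divided by the root of F. Window medians took other genes averaging 50 counts or more. Lengths and positions are from GENCODE M21 (GRCm38).

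The genes, the pathway list and the marker lists were chosen with earlier results of these data known. The further genes named are Nfkbia, the nearest neighbours of a gene that average 50 counts or more, and, per comparison, up to 4 called genes of the pathway list in each direction with the largest log2 fold changes. EB genotypes were not inferred from expression. Clones are independent by the study's methods. The deviations of same-coded EB libraries at 48 hr and 96 hr from their group means had correlations of 0.382 to 0.728. These deviations also carry genotype, since each EB group mixes both. For 5 of the clone codes, but not all, the 48 hr library correlated best with its own 96 hr library. The clone code was used as a block in an alternative fit only. The main fit of the stages had stage as its only term. No 2 libraries of a group were duplicates. The method was tested on simulated data. Alternatives were DESeq2 1.42.0 size factors and Wald test, other count filters, the mESC genotypes as separate groups, other sets of libraries, blocks, the window offset, a fold change over 2, and each library left out.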

Additional observations from a re-analysis of the deposited data

Results flagged for a closer look

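Each of the 10 genes was checked in the 6 libraries of each EB time for a library far from the others (Dixon's ratio of gap to range). Of the 20 checks in all, 5 stood out. The cut is meant to flag about 1 in 20 independent checks. These checks share their libraries and each EB group mixes both genotypes, so the 5 cannot be set against that rate. In the libraries of clone code E3, Chuk was high at 96 hr with 87.6 CPM, Tab2 was low at 48 hr with 117 CPM and at 96 hr with 124 CPM, and Map3k14 was high at 48 hr with 4.15 CPM. In the library of E14 at 96 hr, Map3k7 was high with 141 CPM. Thus 4 of the 5 belong to E3, whose libraries at the 2 times also deviated together more than those of any other code, with a correlation of 0.728. With both E3 libraries left out, an alternative added after the values were seen, 5 of the 10 genes were called between 48 hr and 96 hr, Map3k14 being the added one (log2 fold change 0.55, adjusted p = 0.0299, edgeR), and 4 of the 10 between mESCs and 48 hr.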

How the results depend on the processing

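With 3 clones per genotype, the mESC calls had little margin. They held, with 3 of the 10 genes higher and 1 lower, under DESeq2 size factors, the DESeq2 Wald test, no low-count filter and the stricter count filter. Other settings changed them. The replicate numbers of WT and KO mESC clones do not pair them (correlations of deviations -0.16, 0.0003 and -0.02). With the number as a replicate block 1 of the 10 genes was called, and Tab1, Traf3 and Tnfrsf1a had adjusted p = 0.0532, 0.0530 and 0.0570 (edgeR). With all 18 libraries in the fit, whose EB groups mix genotypes, 0 of the 10 genes and 0 pathway genes were called (1 gene of all), with the window offset 2 and 1, and with a fold change over 2 required 0 of the 10. The pathway count was 1 without the low-count filter and 1 with the block. Leaving out 1 clone gave 0 to 5 of the 10 genes and 0 to 3 pathway genes, and without WT clone 2 no gene of all was called (3104 at an unadjusted p under 0.05). The offset turned Traf3 to 0.14 and Map3k7 to 0.14 (log2).

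With a fold change over 2 required, 0 of the 10 genes were called at 48 hr and 1 at 96 hr, and with only the 12 libraries of the EB stages 2 were called at 96 hr. With the clone code as a block 26 pathway genes were called at 96 hr, against 17. The clone code block left the number of the 10 genes called at 96 hr at 4. Leaving out 1 library, an alternative added after the values were seen, gave 4 to 5 of the 10 genes and 13 to 19 pathway genes at 48 hr, and 2 to 5 and 12 to 25 at 96 hr. Chuk at 96 hr had adjusted p = 0.0809 without the low-count filter and 0.0998 with the 12 libraries. Log2 fold changes near 0 changed sign when 1 library was left out, with ranges of -0.18 to 0.19 for Ikbkb, -0.057 to 0.035 for Ikbkg and -0.073 to 0.060 for Map3k7 in mESCs, -0.039 to 0.16 for Traf3 and -0.20 to 0.042 for Tnfrsf1a at 48 hr, and -0.024 to 0.068 for Tab2 and -0.0072 to 0.076 for Map3k7 at 96 hr (-0.0057 without both E3 libraries). The causes were not tested.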

Other observations

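Traf3 differed between clone codes more than between times. At 48 hr and 96 hr its level was 15.2 and 16.7 CPM in D4, 15.9 and 17.3 CPM in E2, 24.0 and 24.5 CPM in E3, 28.2 and 30.8 CPM in H7, 30.3 and 32.7 CPM in H9, and 32.8 and 36.4 CPM in E14. The order of the 6 codes was the same at both times. Cyld at 48 hr was 31.7 CPM in D4, 26.5 CPM in E2, 26.1 CPM in E3, 19.7 CPM in E14, 15.9 CPM in H9 and 15.6 CPM in H7. At 96 hr Cyld was 29.6 CPM in D4, 27.6 CPM in E3, 27.2 CPM in H9 and 27.0 CPM in E2. E14 and H7 were then at 21.8 and 20.9 CPM, and the order of the codes was not that of 48 hr. The genotype of these codes is not given in the sources used here.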
